A study of Mus musculus with 12 samples.

Results

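The genes described here are 6 inhibitors of the cyclin-dependent kinases (CDKs): Cdkn1a, Cdkn1b and Cdkn1c of the Cip/Kip family, and Cdkn2a, Cdkn2b and Cdkn2c of the Ink4 family. Their identifiers are ENSMUSG00000023067 (Cdkn1a, chromosome 17), ENSMUSG00000003031 (Cdkn1b, chromosome 6), ENSMUSG00000037664 (Cdkn1c, chromosome 7), ENSMUSG00000044303 (Cdkn2a), ENSMUSG00000073802 (Cdkn2b) and ENSMUSG00000028551 (Cdkn2c), the last 3 on chromosome 4. They were taken by gene symbol, a rule that uses no measured value although the family was picked with earlier results of these data known, and are 6 of the 37620 genes counted. Cdkn2d, the other Ink4 gene, was not analysed here. RNA was sequenced from cultured neural stem cells of C57BL/6J mouse embryos (E14.5), kept dividing with FGF-2 and EGF, in 12 libraries of 4 groups. The 3 E12KO libraries are from E12-/- cells and the 3 E12wt libraries from E12+/+ cells of their litter mates. The 3 E47KO libraries are from E47-/- cells and the 3 E47wt libraries from E47+/+ cells of theirs. E12 and E47 are splice forms of Tcf3, an E protein that binds E-box DNA. No label says how the alleles were made or which cells carry the deletion. Whether replicates were grown from different embryos is not said in the labels, so p-values measure only the spread between these libraries, which may be technical.

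CDKs bound to cyclins drive cells through the division cycle. Cip/Kip proteins bind cyclin-CDK complexes of several kinds, whereas Ink4 proteins bind Cdk4 and Cdk6 and keep them from D-type cyclins. Active Cdk4 and Cdk6 phosphorylate Rb proteins, which releases E2F factors and allows DNA synthesis. In neural progenitors these inhibitors are known for restraining division and for roles in cell-cycle exit, and E proteins are known to act on some of their genes in other cells.

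Each library held 34515297 to 56835783 gene reads on the strand opposite to the transcript's, the strand that this kit reads. The members had between 142 reads (Cdkn2b) and 16159 reads (Cdkn1a) in a library, and 3 reads are worth 0.0528 to 0.0869 counts per 1000000 gene reads (CPM). The first principal component held 31.2% of the variance and set E47KO replicate 2 at 73.6, with E12wt replicate 3 at the other end at -30.5. For members, the main log2 fold changes that rest on either are therefore also given without it. Values of the pathway and marker lists include both libraries. Neural stem cell markers summed to 7697 to 8226 CPM in E12KO, 7343 to 8280.5 CPM in E12wt, 7852 to 8405 CPM in E47KO and 7753 to 8569 CPM in E47wt, whereas markers of microglia, erythroid cells and endothelium summed to at most 0.255, 0.45 and 1.83 CPM in any library. Neuronal markers summed to 1043 to 1315 CPM and oligodendrocyte lineage markers to 357 to 660.2 CPM over the 12 libraries. Most of the neuronal sum was Map2 (966 to 1253 CPM), whereas Tubb3 and Dcx had at most 41.4 and 58.7 CPM. Tcf3 itself does not check the labels, since its reads hold both splice forms. Its level was 92.1, 72.9 and 101 CPM in E12KO against 77.1, 82.4 and 75.9 CPM in E12wt. The E47KO libraries had 117, 113 and 106 CPM against 84.2, 75.9 and 97.2 CPM in E47wt. Reads from Y-linked genes exceeded those of Xist in all 3 E47KO libraries, in E47wt replicate 2 and in no other library.

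Because E12 and E47 bind E boxes, the 250 bases before each RefSeq start of the members were searched for CANNTG, a motif that reads the same way on both strands. RefSeq windows (GRCm38.p6) were found for 5 of the 6 members, 8 windows in all; Cdkn1c was not among them. The motif was found in 1 of the windows of Cdkn1a and in that of Cdkn2b, and both are printed with the motif in capitals to show the only such letters in these windows. The first is chr17:29093519-29093768 on the plus strand, with a CAGGTG that starts 187 bases before the start site. The second is chr4:89311033-89311282 on the minus strand, with a CAAGTG that starts 37 bases before the start site.
Cdkn1a window: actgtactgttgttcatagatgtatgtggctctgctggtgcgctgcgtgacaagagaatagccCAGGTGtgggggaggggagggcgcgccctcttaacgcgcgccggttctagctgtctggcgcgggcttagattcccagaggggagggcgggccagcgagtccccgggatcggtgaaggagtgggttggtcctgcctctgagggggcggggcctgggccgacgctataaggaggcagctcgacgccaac
Cdkn2b window: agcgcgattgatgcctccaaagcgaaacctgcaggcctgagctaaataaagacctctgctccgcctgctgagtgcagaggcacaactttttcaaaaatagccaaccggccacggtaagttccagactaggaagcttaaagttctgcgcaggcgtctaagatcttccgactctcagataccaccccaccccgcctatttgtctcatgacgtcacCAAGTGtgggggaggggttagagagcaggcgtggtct
Over all 32851 mouse windows of the same length, 66.2% held CANNTG and 17.2% held CAGGTG or its reverse complement CACCTG, so that a match describes letters and not a site.

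Per length, Cdkn1a was the most abundant member and Cdkn1c and Cdkn2b the least. Cdkn1a had 82.0 ± 16.7 CPM per kb of exon (SD, n = 12 libraries, as for the next 5 values), with a range of 55.7 to 108. Its protein, p21, is the best known p53 target among the inhibitors. Cdkn1b (p27) had 27.7 ± 2.99 CPM per kb and Cdkn2c (p18) had 24.3 ± 0.849 CPM per kb. Cdkn1b was above Cdkn2c in 11 of 12 libraries, but their ranges overlapped. Cdkn2a, which gives p16Ink4a and p19Arf from different first exons, had 13.9 ± 3.39 CPM per kb. Cdkn2b (p15) had 4.18 ± 1.40 CPM per kb and Cdkn1c (p57) had 3.55 ± 1.58 CPM per kb. Cdkn2b was above Cdkn1c in 8 of 12 libraries and their ranges overlapped. The remaining neighbours in this order (Cdkn1a and Cdkn1b, Cdkn2c and Cdkn2a, Cdkn2a and Cdkn2b) had ranges that did not overlap. Exon lengths came from a reference of another build than the reads, and with the longest transcript in place of all exons Cdkn1a came to 140.1 CPM per kb.

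The members also differed in how much they varied between libraries. The ratio of the highest to the lowest library was 4.02 for Cdkn1c, 3.08 for Cdkn2b, 2.35 for Cdkn2a, 1.94 for Cdkn1a, 1.41 for Cdkn1b and 1.15 for Cdkn2c. Cdkn2c was thus the steadiest, with a coefficient of variation of 3.49% over all 12 libraries, against 44.5% for Cdkn1c.

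**Figure D1:**
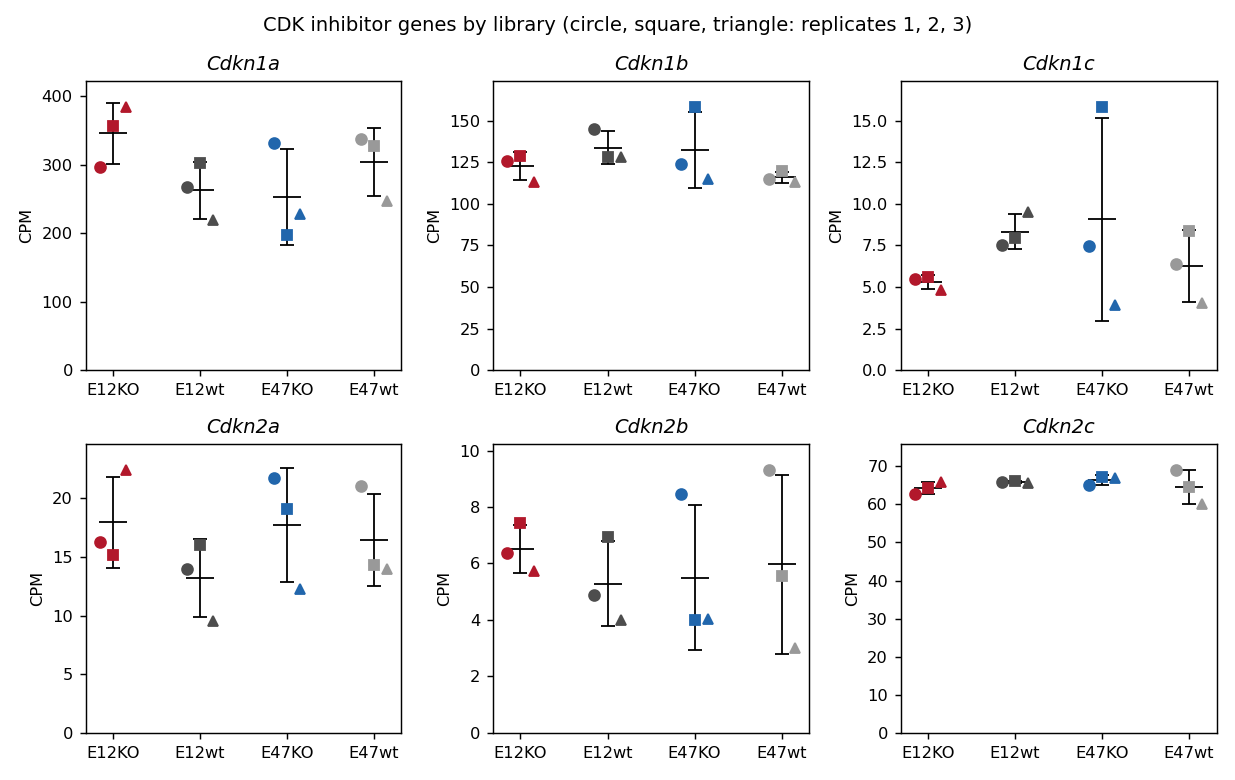
Level of each CDK inhibitor gene in CPM (y axis, linear, starting at 0) in each of the 12 libraries, by group on the x axis; circle, square and triangle are replicates 1, 2 and 3, and lines are the group mean ± SD (n = 3). All 3 E12KO libraries lie below all 3 E12wt libraries for Cdkn1c, and E47KO replicate 2 is its highest library at 15.8 CPM.

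In the E12 line, Cdkn1c was lower and Cdkn1a was higher in E12KO than in E12wt on average, but no member passed the edgeR quasi-likelihood test at a Benjamini-Hochberg adjusted p under 0.05. Of all 14755 genes tested, 0.0407% passed. At an unadjusted p under 0.05, 2 of the 6 members passed (Cdkn1c and Cdkn1a), against 8.96% of all genes. The median log2 fold change was 0.14 over the members and 0.00 over all genes. In the E47 line 0 of the 6 passed the same test, against 0.0134% of 14965 genes, and 0 had an unadjusted p under 0.05, against 2.19% of all genes. DESeq2 called 0.0321% of all genes in that line and 0.0796% passed in the authors' deposited table, again with no member among them. The E47KO and E47wt libraries overlapped for all 6 members, whereas 7.89% of all genes had no overlap. There the median log2 fold change was 0.07 over the members and -0.01 over all genes.

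Cdkn1c encodes p57, which is expressed from the maternal allele of an imprinted domain. Cdkn1c had 5.51, 5.60 and 4.8 CPM in E12KO, against 7.52, 7.93 and 9.51 CPM in E12wt. Every E12KO library was below every E12wt library, and it was the only member with no overlap in this line, which 13.6% of all genes had in either direction. Its log2 fold change was -0.64 ± 0.14 (SE), with an unadjusted p of 0.00136 and an adjusted p of 0.418 (edgeR). DESeq2 on the same counts gave -0.65 ± 0.16 with an adjusted p of 0.0154, and called 0.669% of all genes. In the authors' deposited table the value was -0.65 ± 0.17 with an adjusted p of 0.026, and 0.513% of the genes of that table passed. The call thus depended on the tool, while the size of the difference did not. With all 12 libraries in 1 edgeR fit, the log2 fold change was -0.65 ± 0.40 and the unadjusted p was 0.135. Without E12wt replicate 3, the highest library of this line, the edgeR fit of this line gave -0.54 ± 0.14.

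Several markers of other cell types were also lower on average in E12KO than in E12wt. Of the 8 mesenchyme and meninges markers 5 were tested, with 4 log2 fold changes below 0 and 1 above 0, and Col1a1, Col1a2 and Bgn were called lower by edgeR. Foxc1, on the same list, had 8.10, 8.60 and 8.15 CPM in E12KO against 7.35, 6.56 and 4.4 CPM in E12wt, higher with no overlap but with an adjusted p of 0.537 (edgeR). The 8 genes summed to 9.42 to 10 CPM in E12KO, most of it Foxc1, and to 12.4 to 17.4 CPM in E12wt. All 6 oligodendrocyte lineage markers had a log2 fold change below 0 (median -0.64), 2 of them with an unadjusted p under 0.05 and none called by edgeR. They summed to 416, 366 and 419.9 CPM in E12KO and to 403, 400.5 and 660.2 CPM in E12wt. Only E12wt replicate 3 lay above the E12KO range, although 2 of the 6 genes had no overlap. Their log2 fold changes are not given without that library. Of the 7 neuron markers tested, 6 were below 0 (median -0.25), 3 with an unadjusted p under 0.05 and none called by edgeR. All 8 neuron markers summed to 1123 to 1315 CPM in E12KO and 1158 to 1248 CPM in E12wt, most of it Map2. Not all lists went this way. Of the 5 astrocyte markers, 3 were above 0 and 2 below 0 (median 0.35), with none called by edgeR. The 4 endothelium markers summed to 1.42 to 1.83 CPM in E12KO and to 1.04 to 1.25 CPM in E12wt. The part of any of these in the Cdkn1c values was not tested.

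Cdkn1c in the E47 line had 7.45, 15.8 and 3.93 CPM in E47KO, against 6.38, 8.37 and 4.02 CPM in E47wt. The groups overlapped, and E47KO replicate 2 held the highest value of all 12 libraries. The log2 fold change was 0.53 ± 0.50, with an adjusted p of 0.971 (edgeR). Without E47KO replicate 2 it was -0.14 ± 0.37, and without E47KO replicate 3 it was 0.91 ± 0.40. The direction in this line therefore depended on 1 library. That library also had the lowest sum of 15 proliferation genes, at 2342 CPM, while the E47KO replicates 1 and 3 had 3450.2 and 4489 CPM and the E47wt libraries 3520.5, 3697 and 4138 CPM. Astrocyte markers (5 genes) summed to 172 to 332 CPM in E47KO, highest in replicate 2, and to 86.0 to 165 CPM in E47wt, with no overlap. Most of the E47KO sums was Aldh1l1 (149, 204 and 107 CPM), which ran from 16.3 to 102 CPM within E12KO. All 5 markers had a log2 fold change above 0, 2 of them with no overlap, and none was called by edgeR. The part of proliferation or of astrocytes in the Cdkn1c values was not tested. In bulk libraries, fewer cells of a type and less RNA per cell cannot be told apart. With the Y-linked status of the libraries as a covariate the log2 fold change was 0.11 ± 0.73.

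**Figure D2:**
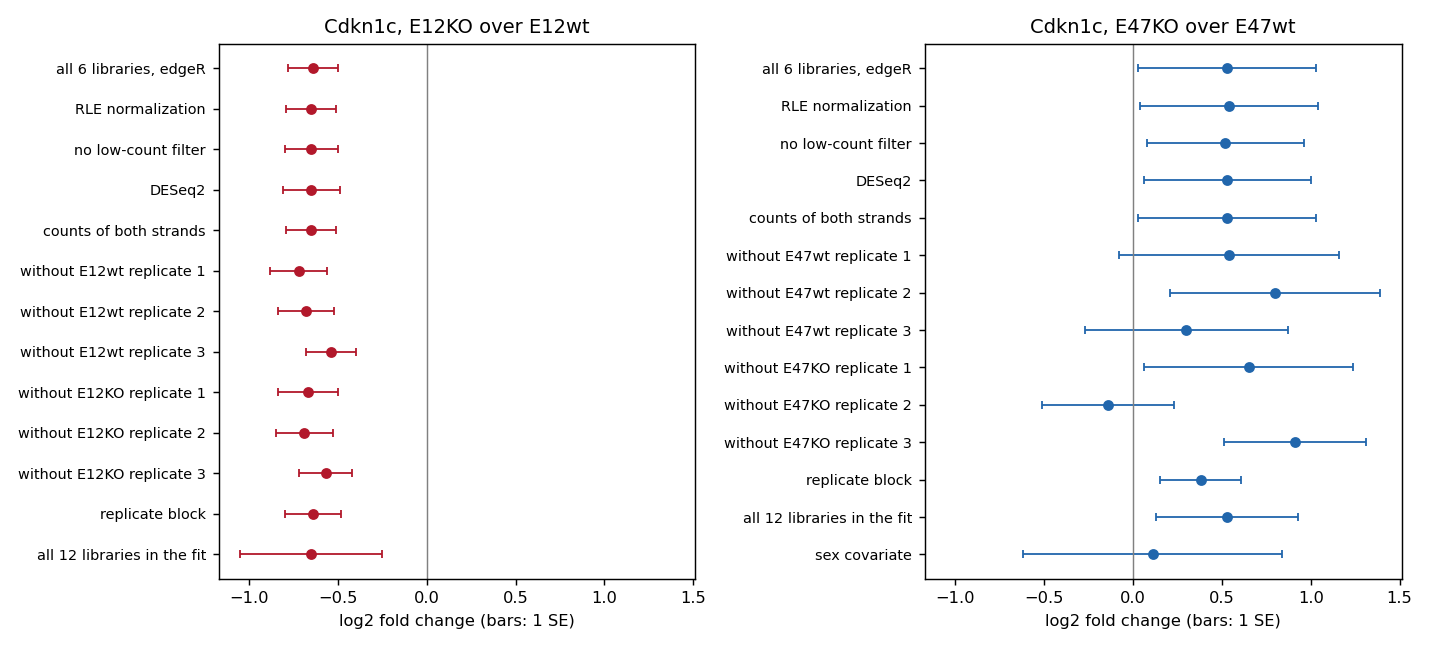
Log2 fold change of Cdkn1c (x axis, bars of 1 SE) under each way of fitting (rows), for E12KO over E12wt on the left and E47KO over E47wt on the right. Values in the E12 line stay between -0.72 and -0.54, whereas in the E47 line they span -0.14 to 0.91.

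Cdkn1a had 297, 357 and 384 CPM in E12KO, against 268, 302 and 219 CPM in E12wt. The groups overlapped by 1 library, since E12wt replicate 2 lay above E12KO replicate 1. The log2 fold change was 0.40 ± 0.13, with an unadjusted p of 0.0139 and an adjusted p of 0.523 (edgeR), and without E12wt replicate 3, the lowest library, it was 0.28. Cdkn1a in the E47 line had 332, 198 and 228 CPM in E47KO, against 338, 327 and 247 CPM in E47wt. The E47KO libraries 2 and 3 were lower than all E47wt libraries, and replicate 1 was among them. The log2 fold change was -0.27 ± 0.21 with an adjusted p of 0.971 (edgeR), and -0.12 without E47KO replicate 2.

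Cdkn1b, whose p27 protein is held largely at the level of protein breakdown, varied little. It had 126, 129 and 113 CPM in E12KO against 145, 128 and 128 CPM in E12wt, with overlap and a log2 fold change of -0.11 ± 0.08. In the E47 line it had 124, 158 and 115 CPM in E47KO against 115, 119.5 and 113 CPM in E47wt. E47KO replicate 2 stood above the rest, as it did for Cdkn1c, and the log2 fold change was 0.19 ± 0.14, or 0.05 without that library. The adjusted p was 0.649 in the E12 line and 0.971 in the E47 line (edgeR).

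The Ink4 genes showed no called difference in either line. Cdkn2a had 16.3, 15.2 and 22.4 CPM in E12KO, against 14.0, 16 and 9.53 CPM in E12wt, so that the groups overlapped around E12wt replicate 2. The log2 fold change was 0.45 ± 0.21, with an unadjusted p of 0.0574 and an adjusted p of 0.557 (edgeR). Without E12wt replicate 3, the lowest library, it was 0.26. Cdkn2a in the E47 line had 21.7, 19.1 and 12.3 CPM in E47KO against 21.0, 14.3 and 14.0 CPM in E47wt, with overlap and a log2 fold change of 0.10 ± 0.26, or -0.07 without E47KO replicate 1. Counts per gene cannot separate p16Ink4a from p19Arf, which inhibit CDKs and Mdm2 by different means.

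Cdkn2b lies beside Cdkn2a on chromosome 4 and is known as a target of TGF-beta signalling. It had 6.38, 7.43 and 5.73 CPM in E12KO, against 4.90, 6.95 and 4.0 CPM in E12wt. It overlapped between groups, with a log2 fold change of 0.31 ± 0.21 and an adjusted p of 0.65 (edgeR), and 0.14 without E12wt replicate 3. In the E47 line it had 8.47, 4.0 and 4.04 CPM in E47KO, against 9.31, 5.57 and 3.02 CPM in E47wt. Both groups had their highest value in replicate 1, and the spread within each group exceeded the difference of the means, with a log2 fold change of -0.11 ± 0.46. Without E47wt replicate 1 it was 0.36, and without E47KO replicate 1 it was -0.57, so that its direction depended on single libraries. Cdkn2c had 62.7, 64.3 and 65.9 CPM in E12KO against 65.9, 66.2 and 65.5 CPM in E12wt. Cdkn2c in the E47 line had 65.0, 67.2 and 67.0 CPM in E47KO against 69.0, 64.6 and 60.1 CPM in E47wt. Its log2 fold changes were -0.03 ± 0.06 in the E12 line and 0.04 ± 0.10 in the E47 line, the smallest of the 6 in each.

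**Figure D3:**
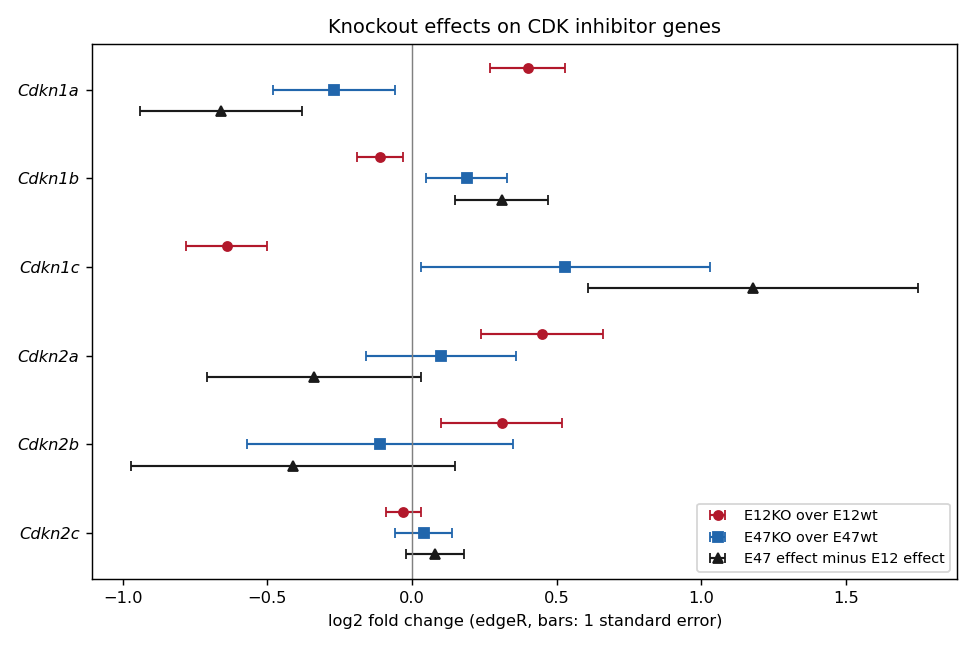
Log2 fold change (x axis, edgeR, bars of 1 SE) of each CDK inhibitor gene (rows) in E12KO over E12wt, in E47KO over E47wt, and as the E47 effect minus the E12 effect. All members but Cdkn2a lie on opposite sides of 0 in the 2 lines, and none of the 6 reached an adjusted p under 0.05 in any of the 3.

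**Figure D4:**
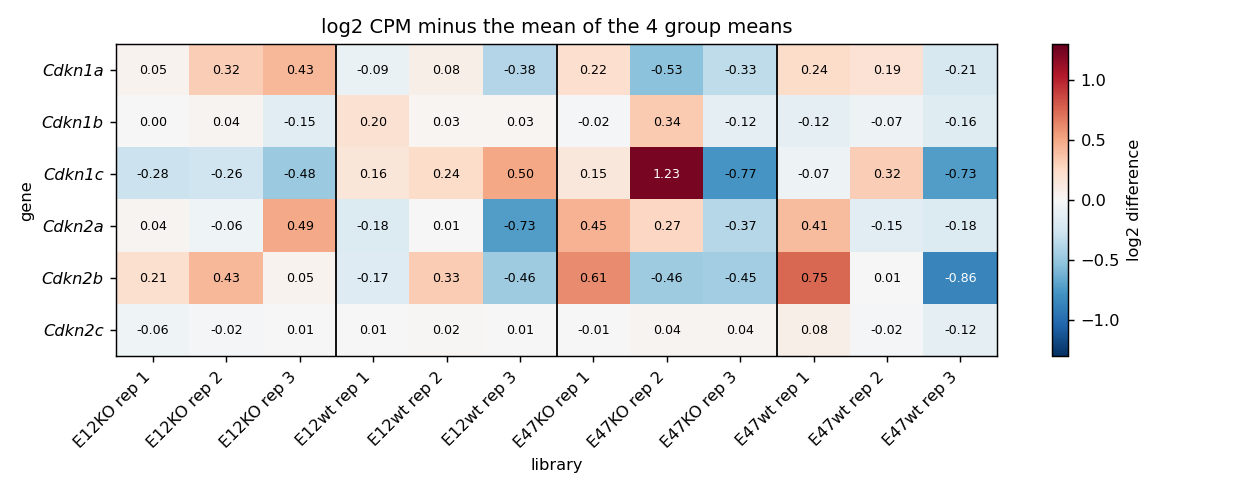
Log2 CPM of each CDK inhibitor gene (rows) in each library (columns), minus the mean of the 4 group means; numbers and colour give the difference. The largest is 1.23 for Cdkn1c in E47KO replicate 2, and every Cdkn2c value lies between -0.12 and 0.08.

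Whether the knockout effects differed between the lines was tested as an interaction over all 12 libraries, where 0% of 15277 genes passed and 3.03% had an unadjusted p under 0.05. DESeq2 called 1 gene there (0.00422% of those it tested), which was no member. The E47 effect minus the E12 effect was -0.66 ± 0.28 for Cdkn1a, with an unadjusted p of 0.0344 and an adjusted p of 0.932 (edgeR), and in this fit it was the only member with an unadjusted p under 0.05. Without both E12wt replicate 3 and E47KO replicate 2 it was -0.39. For Cdkn1c it was 1.18 ± 0.57, with an unadjusted p of 0.062 (edgeR), and 0.51 ± 0.41 without E47KO replicate 2. Without E12wt replicate 3 as well it was 0.40 ± 0.43. In other fits with all libraries its unadjusted p was 0.0332 (DESeq2) and 0.00736 (edgeR with replicate number as a block), and neither fit called it. The opposite directions of Cdkn1c in the 2 lines therefore were not shown to differ. Cdkn1b, Cdkn2a, Cdkn2b and Cdkn2c had differences of 0.31 ± 0.16, -0.34 ± 0.37, -0.41 ± 0.56 and 0.08 ± 0.10, all with an adjusted p of 0.932 (edgeR). Averaged over both lines, no member passed, against 0.0262% of all genes, and none had an unadjusted p under 0.05, against 5.75% of all genes. DESeq2 called 0.359% of all genes on the average and no member. The values ran between -0.06 ± 0.28 for Cdkn1c and 0.28 ± 0.18 for Cdkn2a. Y-linked status, uneven between E47KO and E47wt, was not in the fits of the difference or of the average.

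Between the wild types, E47wt was set against E12wt, with 0% of 14892 genes passing the test and 3.81% at an unadjusted p under 0.05; DESeq2 called 8 genes (0.0562%), none of them a member. Cdkn1b was the only member with an unadjusted p under 0.05. It had 115, 119.5 and 113 CPM in E47wt, against 145, 128 and 128 CPM in E12wt, with no overlap, which 9.52% of all genes had in either direction. Its log2 fold change was -0.21 ± 0.07, with an unadjusted p of 0.0169 and an adjusted p of 1 (edgeR), and it was -0.14 without E12wt replicate 1. Cdkn1c had 6.38, 8.37 and 4.02 CPM in E47wt, against 7.52, 7.93 and 9.51 CPM in E12wt, and a log2 fold change of -0.41 ± 0.25.

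Relations between members were examined over the 12 libraries in 15 pairs, on log2 CPM with permutation p-values adjusted over the pairs. Cdkn1a and Cdkn2b went together, with Pearson's r of 0.77 (permutation p = 0.00381, adjusted 0.0286) and Spearman's rho of 0.80 (permutation p = 0.00284, adjusted 0.0426). Without the 2 libraries farthest from the median of Cdkn1a, E12wt replicate 3 and E47KO replicate 2, r was 0.74. Cdkn1b and Cdkn1c had r of 0.79 (permutation p = 0.00258, adjusted 0.0286) and rho of 0.67 (permutation p = 0.0208, adjusted 0.156). Without E12wt replicate 1 and E47KO replicate 2, r was 0.62, and without E47KO replicate 2 alone it was 0.58. Cdkn1a and Cdkn2a had r of 0.55 (permutation p = 0.0616, adjusted 0.231), and 0.83 without E47KO replicate 2. The other 12 pairs had no adjusted p under 0.05. All 12 libraries share the depth scaling and the 4 groups, and group differences were not removed.

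**Figure D5:**
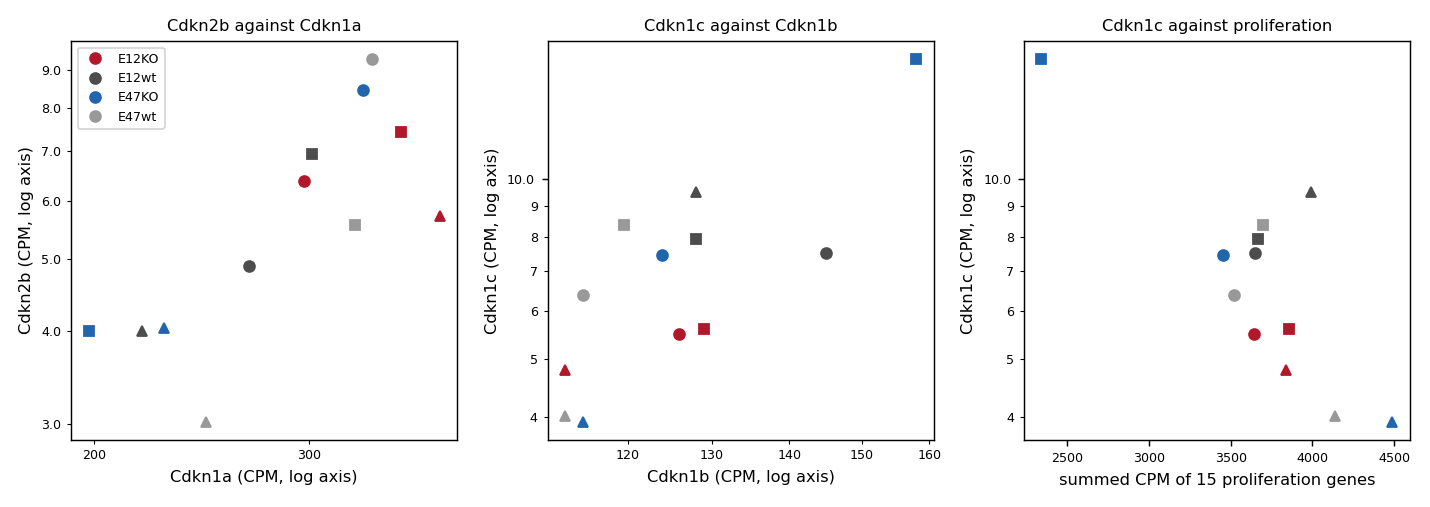
Levels in each of the 12 libraries, coloured by group with circle, square and triangle for replicates 1, 2 and 3: Cdkn2b against Cdkn1a, Cdkn1c against Cdkn1b (CPM, log axes) and Cdkn1c against the summed CPM of 15 proliferation genes (linear x axis, log y axis). E47KO replicate 2 lies apart in both panels of Cdkn1c, with Cdkn1c at 15.8 CPM and a proliferation sum of 2342 CPM.

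Among 10493 genes with a mean of at least 5 CPM, the 3 whose log2 CPM followed each member most closely over the 12 libraries were taken as a description. Cdkn1a was most like Bambi (r = 0.93), Kirrel3 (0.93) and Nt5dc3 (0.92). Cdkn1b was most like Mettl17 (r = 0.95), Neat1 (0.94) and Dpp7 (0.93). Cdkn1c was most like Tox3 (r = 0.97), ENSMUSG00000057254 (0.96) and Akap8l (0.96), and these were 0.94, 0.93 and 0.92 without E47KO replicate 2. Cdkn2a was most like Coq7 (r = 0.93), Bbc3 (0.91) and Snx8 (0.91), of which Bbc3 encodes Puma, a cell-death protein known as a p53 target. Cdkn2b was most like Sdc4 (r = 0.93), Spryd4 (0.91) and Schip1 (0.90). Cdkn2c had looser matches, Zfp251 (r = 0.77), Zc3hc1 (0.75) and 0610009B22Rik (0.72).

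Other genes of the pathway were followed in 9 lists of 125 genes, of which 118 were tested. No gene of these lists passed the edgeR test in the E12 line or in the E47 line. At an unadjusted p under 0.05 there were 12 of the 118 in the E12 line, where 8.96% of all genes had one, and 2 in the E47 line, where 2.19% did; both counts are near those shares. Of 12 cyclins and their kinases, 5 had a log2 fold change above 0 and 7 below 0 in the E12 line, and 3 above and 9 below in the E47 line. Cdk4, the kinase that Ink4 proteins bind, had 0.01 ± 0.07 and Ccnd1, its cyclin, had 0.26 ± 0.09 in the E12 line, against 0.06 ± 0.10 and -0.33 ± 0.52 in the E47 line. Ccnd1 had 812, 172 and 905 CPM in E47KO against 767, 681 and 921 CPM in E47wt. Only E47KO replicate 2 lay outside the E47wt range. The counts above and below 0 in the E47 line include that library in every list. Of 11 Rb and E2F genes, 4 were above 0 and 7 below 0 in the E12 line, and 3 above and 8 below in the E47 line. E2f3 and Rbl1, the most abundant of them, had 0.04 ± 0.08 and -0.04 ± 0.08 in the E12 line, and -0.18 ± 0.25 and -0.20 ± 0.24 in the E47 line. Of 14 genes of the breakdown of Cip/Kip proteins, 10 were above 0 and 4 below 0 in the E12 line, and 4 above and 10 below in the E47 line. Skp1a, a subunit of the ligase that marks p27 for breakdown, had -0.06 ± 0.06 in the E12 line and -0.10 ± 0.11 in the E47 line, and Ddb1, a subunit of Cul4 ligases, had 0.03 ± 0.06 in the E12 line and 0.01 ± 0.10 in the E47 line.

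Of 20 genes of the p53 pathway, 16 had a log2 fold change above 0 and 4 below 0 in the E12 line, with a median of 0.12, and 4 above and 16 below in the E47 line, with a median of -0.12. The median over all genes was 0.00 in the E12 line and -0.01 in the E47 line. Between the wild types, E47wt against E12wt, 16 were also above 0 and 4 below 0, with a median of 0.09. The E12wt libraries were the same in both comparisons, so the wild-type split is no separate check on the split in the E12 line. Ccng1, a p53 target, had 0.22 ± 0.12 in the E12 line and -0.28 ± 0.17 in the E47 line, and Ei24 had 0.11 ± 0.06 and -0.16 ± 0.10 in the same order. Cdkn1a was not in this list. The summed level of the 20 genes was 2388, 2752 and 2646 CPM in E12KO against 2456, 2487 and 2293 CPM in E12wt. It was 2411, 2079.9 and 2358 CPM in E47KO against 2616, 2597 and 2459 CPM in E47wt. The E12 groups overlapped, whereas every E47KO sum was below every E47wt sum. The lowest sum of each line was in E12wt replicate 3 and in E47KO replicate 2, the libraries at the ends of the first principal component. Of 17 Polycomb group genes, whose complexes are known to repress the Cdkn2a and Cdkn2b locus, 5 were above 0 and 12 below 0 in the E12 line, and 11 above and 6 below in the E47 line. Ezh2, a histone methyltransferase, had -0.02 ± 0.06 in the E12 line and -0.11 ± 0.13 in the E47 line, and Phc2 had 0.05 ± 0.09 and 0.39 ± 0.17 in the same order. Of 16 transcription factors known to act on CDK inhibitor genes, 9 were above 0 and 7 below 0 in the E12 line, and 7 above and 9 below in the E47 line. Ctcf had -0.02 ± 0.06 in the E12 line and -0.05 ± 0.12 in the E47 line, and Hey1 had 0.18 ± 0.18 and 0.26 ± 0.37 in the same order. Of 7 E protein and Id genes, 4 were above 0 and 3 below 0 in each line. Tcf12 and Tcf4, the other E proteins, had 0.00 ± 0.08 and 0.07 ± 0.08 in the E12 line, and -0.09 ± 0.09 and -0.02 ± 0.12 in the E47 line. Id2, which encodes an inhibitor of E proteins and was singled out after its values were seen, had -0.45 ± 0.08 in the E12 line, with an unadjusted p of 0.000248 and an adjusted p of 0.223 (edgeR). Of 15 proliferation genes, 7 were above 0 and 8 below 0 in the E12 line, and 4 above and 11 below in the E47 line. Top2a and Mki67 had 0.03 ± 0.07 and 0.08 ± 0.09 in the E12 line, and -0.12 ± 0.20 and -0.26 ± 0.20 in the E47 line.

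The list of genes in the imprinted region around Cdkn1c held 13 genes. Of these, 12 were found in the counts, without Kcnq1ot1, and 6 were tested. Whether the listed genes share imprinting control with Cdkn1c was not tested. In the E12 line H19 and Igf2, chosen here after their values were seen, lay on the same side as Cdkn1c. H19, a non-coding RNA on this list, had 0.698, 0.775 and 0.855 CPM in E12KO, against 1.51, 1.57 and 2.11 CPM in E12wt, with no overlap. Its log2 fold change was -1.14 ± 0.23, with an unadjusted p of 0.000869 and an adjusted p of 0.356 (edgeR). Igf2, a growth factor gene, had 0.125, 0.125 and 0.356 CPM in E12KO, against 1.18, 0.759 and 0.509 CPM in E12wt, again with no overlap and with a log2 fold change of -1.99 ± 0.49 and an adjusted p of 0.507 (edgeR). Igf2 rests on few reads, since 3 reads are worth up to 0.0869 CPM. The other 4 tested genes had no unadjusted p under 0.05; Cd81 and Nap1l4, the most abundant, had 0.17 ± 0.08 and 0.00 ± 0.06. H19 in the E47 line had 0.883, 1.63 and 0.409 CPM in E47KO against 1.31, 0.904 and 0.596 CPM in E47wt, with overlap and its highest value in E47KO replicate 2, as for Cdkn1c; its log2 fold change was 0.04 ± 0.53. Igf2 had 0.263, 0.166 and 0.0711 CPM in E47KO against 1.26, 0.301 and 0.192 CPM in E47wt, with overlap and a log2 fold change of -1.80 ± 0.82. Its highest value was in E47wt replicate 1. That library also had the highest mesenchyme and meninges sum of its group, at 21.5 CPM against 9.58 and 5.94 CPM. The part of mesenchymal, oligodendrocyte lineage or neuronal cells in the H19 and Igf2 values was not tested.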

How the data were processed

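Per the labels' protocols, the 12 libraries were stranded mRNA preparations. The submitters' processing notes name STAR 2.5, build mm9, DESeq2 and DESeq (the annotation used is not given in these sources). Deposited counts are whole numbers per gene for both strands, the sense strand and the opposite strand; opposite-strand counts, 97.1 to 97.2% of strand-assigned gene reads, were used. Rows that name no gene held 14.2 to 17.5% of reads and were left out. The authors also deposited normalized signal, which equals the both-strand counts over 1 factor per library, with log2 fold changes, a score (fold change over its standard error), p-values and adjusted p-values for each line.

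Gene names came from the deposited tables (12574 of 37620 IDs) or a GRCm38 reference (20333), and 4713 kept their ID. Counts were tested with edgeR 4.0.16 in R 4.3.3: low-count filter by group, TMM scaling, quasi-likelihood F test, two-sided, Benjamini-Hochberg adjustment over all genes, calls at an adjusted p under 0.05. Standard errors are the size of the log2 fold change over the square root of F. Each line was fitted on its 6 libraries, the wild types on theirs, and the difference and average of the knockout effects on all 12. CPM were TMM-scaled over all 12 libraries; log2 CPM used a prior count of 2. Correlations used Python 3.11.15, scipy 1.17.1 and 100000 permutations. Alternatives were DESeq2 1.42.0, RLE scaling, no filter, both-strand counts, 12-library fits, each library left out, a replicate block, and a sex covariate in the E47 line. The fits were tested on simulated counts.

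The members, their pathway lists and the marker lists were chosen with earlier results of these data known. The genes named are all 6 members, the 3 genes most like each, and list genes described by count, with examples by abundance; Id2, H19, Igf2, Col1a1, Col1a2 and Bgn were added after their values were seen. Deviations of libraries with the same number correlated at 0.12, 0.23 and 0.47 in the E47 line, which passes the rule for pairing (every pair over 0.1), and at 0.10, 0.07 and -0.02 in the E12 line, which does not. The main fits of both lines are unpaired, and the replicate block is an alternative. Reads without molecular identifiers are not independent molecules, so floors cover counting error only.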

Additional observations from a re-analysis of the deposited data

How the results depend on the processing

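Of 426 alternatives to the 30 member log2 fold changes, 407 kept the direction and the side of the threshold, 1 passed the threshold and 18 changed sign. The causes were not tested. The 1 was Cdkn1c in the E12 line with DESeq2, at -0.65. With each library left out in turn, the E47 effect ran between -0.57 and 0.36 for Cdkn2b, -0.07 and 0.33 for Cdkn2a and -0.14 and 0.91 for Cdkn1c. The difference of the effects ran between -0.87 and 0.06 for Cdkn2b. E47wt against E12wt ran between -0.29 and 0.49 for Cdkn2b and between -0.08 and 0.02 for Cdkn2c. The average effect ran between -0.39 and 0.13 for Cdkn1c, -0.13 and 0.34 for Cdkn2b, -0.01 and 0.04 for Cdkn2c, -0.06 and 0.15 for Cdkn1a and -0.03 and 0.10 for Cdkn1b. Without both E12wt replicate 3 and E47KO replicate 2, an alternative chosen after seeing the data, the average effect on Cdkn1b was -0.04.

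Counts of genes called over the whole table moved more. In the E12 line 6 genes were called, against 20 with no low-count filter, 98 with DESeq2, 2 with all 12 libraries in the fit and 2 to 10 with a library left out. In the E47 line 2 were called, against 6 with DESeq2, 1 with the sex covariate and 0 to 7 with a library left out. For the difference of the effects 0 were called, against 1 with DESeq2 and 0 to 1 with a library left out. For the average 4 were called, against 57 with DESeq2 and 2 to 4 with a library left out. Between the wild types 0 were called, against 8 with DESeq2. With a replicate block 4 genes were called in the E12 line, 2 in the E47 line, 0 for the difference and 3 for the average. The block changed no call of a member. Under it the E47 effect on Cdkn1c was 0.38 ± 0.23 and the difference between lines was 1.03 ± 0.29, with an adjusted p of 0.841 (edgeR). The E47 effects on Cdkn1a and Cdkn1b were -0.29 ± 0.16 and 0.18 ± 0.12 with the block. Those on Cdkn2a, Cdkn2b and Cdkn2c were 0.09 ± 0.16, -0.07 ± 0.23 and 0.04 ± 0.11. With the sex covariate the E47 effect was -0.37 ± 0.32 for Cdkn1a, 0.15 ± 0.22 for Cdkn1b and 0.31 ± 0.39 for Cdkn2a. For Cdkn2b and Cdkn2c it was -0.02 ± 0.71 and 0.04 ± 0.17 with that covariate. With the longest transcript as length, the level was 140.1 CPM per kb for Cdkn1a, 18.2 for Cdkn2a and 26.4 for Cdkn2c. Depth limits Cdkn2b and Cdkn1c most, with 142 to 355 and 189 to 573 reads in a library.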
